A study of Mus musculus with 6 samples.

Results

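The cytosolic ribosomal protein genes encode the proteins of the ribosome that translates nuclear messenger RNA. They were taken as every gene whose symbol begins with Rpl or Rps and a digit, together with Rpsa, Rplp0, Rplp1 and Rplp2; the S6 kinases (Rps6k), Rps19bp1 and symbols marked as pseudogenes (-ps) were left out. The rule used symbols only and no measured value. Of 85 symbols that fitted it, Rpl37rt, Rps3a3 and Rps4l were listed at 0 in every library, which left 82 genes of 15431, 49 of the large subunit and 33 of the small subunit. RefSeq gave 81 of the 82 as protein coding. The row Rps4y2 carries an older name of Rps4l, a transcribed pseudogene on chromosome 6. The authors' values hold a row under each name, and the reason is not given in the sources used here.

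They were measured by bulk sequencing of total RNA, depleted of ribosomal RNA, in 6 libraries from flat cultures of mouse stomach epithelium. Forestomach, corpus and antrum (the last labelled antrum and pylorus together) had 2 libraries each, all of genotype WT. Forestomach, the squamous region, was grown by another published protocol than the glandular regions, corpus and antrum, so region and growth conditions cannot be told apart. The titles carry the same pair of IDs in each of the 3 regions, with 1 library per ID, but the labels do not say what an ID stands for and the columns of the table do not repeat it. Age, number of animals and the meaning of the mark p2 in the titles are not given in the labels. Nothing says that the 2 libraries of a region came from separate animals or cultures. The p-values below thus reflect how far these 6 libraries scatter, and that scatter may be technical. They also take these libraries as independent. Yet corpus and antrum libraries with the same column number deviated alike from their region means (Pearson r = 0.614 over all genes tested). The adjusted p-values do not allow for this.

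A ribosome has a small subunit, which reads the messenger RNA, and a large subunit, which joins the amino acids, and most ribosomal proteins join it during assembly in the nucleolus, with some added late in the cytoplasm. Most ribosomal protein messengers of mammals begin with a C followed by a run of C and T, the terminal oligopyrimidine motif, through which the kinase mTOR and the RNA-binding protein LARP1 control their translation. In epithelia, ribosome production accompanies cell growth and division.

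The start sites of several of these genes are shown because this run was more frequent in the set than among all promoters, though not every member has it. Each window below, read 5′ to 3′ from the RefSeq promoters of build GRCm38.p6, holds 30 bases before the annotated start and 30 bases from it. Capitals mark the longest run of a C followed by at least 4 bases that are C or T. Rps6, Rplp2, Rpl31, Rpl22l1 and Rpl7l1 are genes that the results below turn on, and Rpl15, Rpl35 and Rps10 were added after their values were seen, the first 2 for the length of their run and Rps10 for its spread between libraries.
Rpl15, chr14:18270957-18271016, minus strand: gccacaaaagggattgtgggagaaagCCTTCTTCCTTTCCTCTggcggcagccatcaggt
Rpl35, chr2:39005102-39005161, minus strand: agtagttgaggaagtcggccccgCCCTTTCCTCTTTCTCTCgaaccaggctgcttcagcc
Rps6, chr4:86857338-86857397, minus strand: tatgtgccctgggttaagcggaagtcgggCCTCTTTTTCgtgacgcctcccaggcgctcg
Rps10, chr17:27635215-27635274, minus strand: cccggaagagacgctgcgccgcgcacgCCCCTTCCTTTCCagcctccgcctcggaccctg
Rplp2, chr7:141447621-141447680, plus strand: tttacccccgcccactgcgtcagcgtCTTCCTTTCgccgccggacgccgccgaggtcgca
Rpl31, chr1:39367821-39367880, plus strand: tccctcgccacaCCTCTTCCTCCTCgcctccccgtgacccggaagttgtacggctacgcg
Rpl22l1, chr3:28805478-28805537, plus strand: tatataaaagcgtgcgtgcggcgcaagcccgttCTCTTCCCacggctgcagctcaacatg
Rpl7l1, chr17:46782627-46782686, minus strand: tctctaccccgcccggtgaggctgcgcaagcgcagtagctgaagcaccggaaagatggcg

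In Rpl15, Rpl35, Rps6, Rps10 and Rplp2 the run, of 17, 18, 10, 13 and 9 bases, spans the annotated start. In Rpl31 a run of 13 bases lies before the start, in Rpl22l1 a run of 8 bases lies after it, and the Rpl7l1 window holds no such run. RefSeq gave promoters for 61 of the 82 genes, 72 in all. A C followed by at least 7 bases that are C or T, within 20 bases before to 50 bases after the start, was present in 50 of these 72 promoters (69.4%), against 20.0% of all 32851 promoters in the same window. A start exactly on a C followed by 4 such bases was found in 13 (18.1%), against 2.51% of all. Over the whole 300 bases and both strands, CCGGAAG, letters bound by ETS factors, stood in 26 promoters (36.1%, against 8.86% of all). AANATGGC, letters bound by YY1, stood in 17 (23.6%, against 6.05%), and TATAAA in 7 (9.72%, against 13.6%). The median GC content was 58.8% in these promoters and 52.7% in all. These matches describe letters and not bound sites.

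The authors' values are CPM, read counts scaled to a fixed library total that here includes reads of no listed gene. Evenly spaced low values put the totals at 36.9 to 47.7 M reads a library, of which 14.0 to 18.2 M fell on listed genes and 0.706 to 1.17 M on the ribosomal protein genes. Most markers fixed for the labelled regions were present. The summed level of Krt5, Krt14 and Trp63, of squamous epithelium, was 9806 to 11122 CPM in forestomach and 1.32 to 2.39 CPM in the glandular libraries. That of Cldn18, Muc5ac, Gkn1 and Krt8, of glandular stomach, was 0.78 to 0.83 CPM and 2371 to 3733 CPM. Of the antral markers, Gast was at 0 in every library, while the sum of the 3 was 45.9 to 60.1 CPM in antrum and 2.49 to 5.34 CPM in corpus. Of the corpus markers, Pgc read 1374 and 1516 CPM in corpus and 307 and 346 CPM in antrum, Gif 99.3 and 201 CPM and 11.1 and 23.9 CPM, and Atp4a, of parietal cells, was at 1.03 CPM or below in every library. The second libraries of the glandular regions, corpus 2 and antrum 2, stood below corpus 1 and antrum 1 in most ribosomal protein genes, and many calls were lost without either of them.

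The ribosomal protein genes were lower in glandular than in forestomach cultures. Their summed level was 27728 and 28937 CPM in the 2 forestomach libraries, 19744 and 16670 CPM in corpus, and 19558 and 15044 CPM in antrum. Both forestomach libraries thus stood above all 4 glandular libraries. As a share of the CPM on listed genes, the sum was 5.75% and 7.35% in forestomach, 5.195% and 5.04% in corpus, and 4.56% and 4.03% in antrum, again without overlap. In bulk RNA, fewer cells of a type and less RNA per cell cannot be told apart.

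All 82 genes reached the minimum level and were tested, with limma on log2(CPM + 1) over 11891 genes, the glandular value being the mean of the corpus and antrum means. Of them, 36 (43.9%) fell in glandular cultures, that is, were lower with an adjusted p under 0.05, where 26.7% of all genes tested were called lower and 21.1% higher. The other 46 did not pass, and 56 had an unadjusted p under 0.05. All 82 estimates were below 0, with a median of −0.69, or 1.61-fold, and a range of −2.61 to −0.01. For all genes tested the median was −0.13, with 6632 estimates below 0 and 5259 above. The lower and upper quartiles of the ribosomal protein genes were −0.85 and −0.54, and those of all genes −0.72 and 0.56. The SD of the log2 fold changes was 0.314 over the members and 1.47 over all genes.

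In 77 of the 82 genes each glandular library was below both forestomach libraries, which held for 34.3% of all genes tested, with the reverse in 25.0%. Among the exceptions were Rps14, Rpl9, Rps7 and Rpl22l1. The calls depended on single libraries. Without corpus 2 or without antrum 2, 7 genes were called lower, with medians of −0.62 and −0.59, while the calls of lower genes among all genes came to 18.5% and 20.2%. Without corpus 1 it was 23 genes (21.8% of all genes lower), with 26 without antrum 1 (22.6%), 31 without forestomach 1 (22.1%) and 30 without forestomach 2 (31.8%). Rpl11, Rpl36a, Rpl37a, Rpl7l1, Rps13, Rps23 and Rps4y2 were called in all 6 of these fits, and every other ribosomal protein gene of the 36 lost its call both without corpus 2 and without antrum 2.

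**Figure D1:**
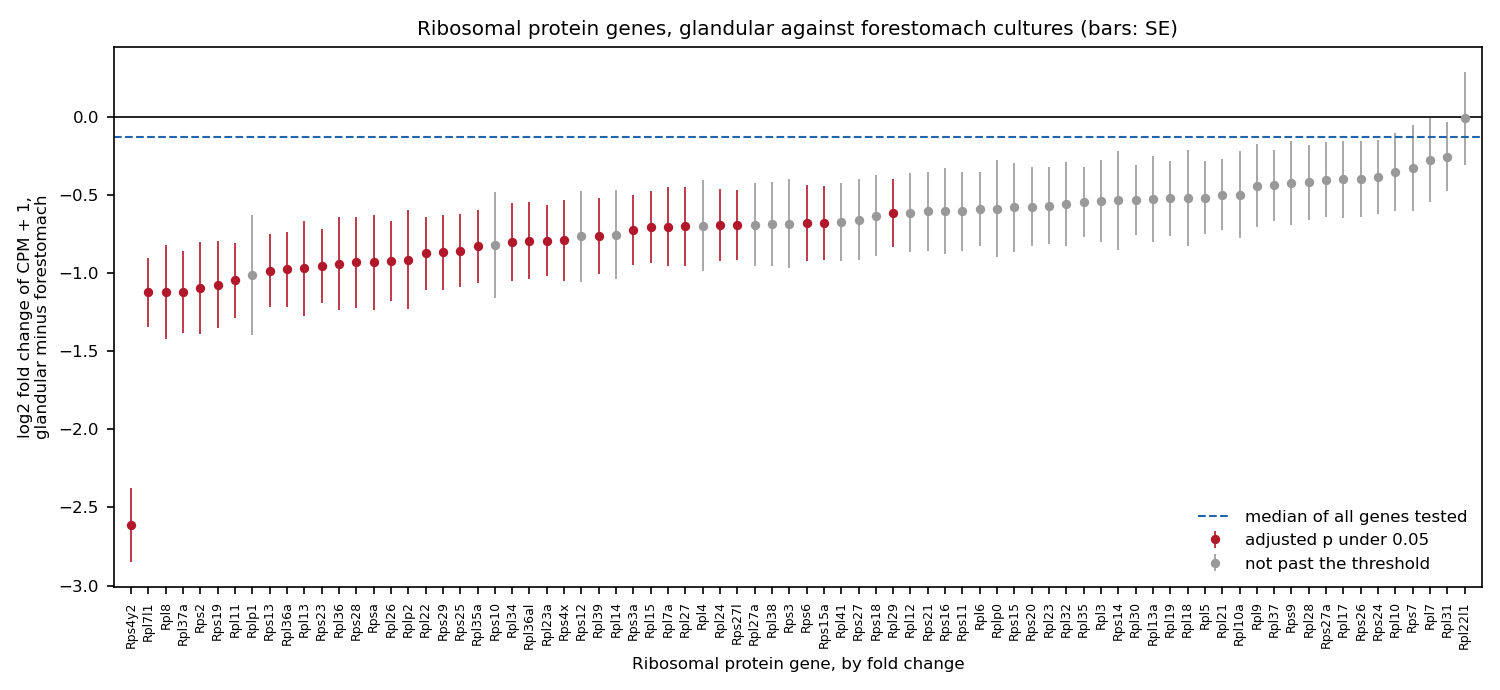
The log2 fold change of CPM + 1, glandular minus forestomach cultures, of the ribosomal protein genes named on the axis, in order; points are limma estimates, bars are SE, red marks adjusted p under 0.05 and the dashed line is the median of all genes tested. The points lie below 0, from −2.61 for Rps4y2 to −0.01 for Rpl22l1, and the red ones are mostly on the left.

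**Figure D2:**
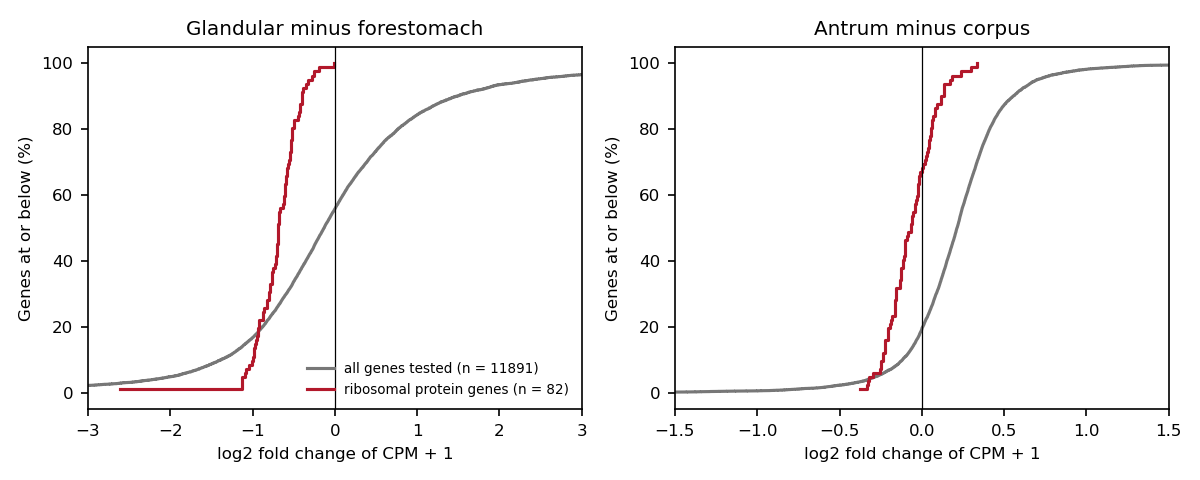
The share of genes (%) at or below each log2 fold change, for the 82 ribosomal protein genes (red) and the 11891 genes tested (grey), left for glandular minus forestomach and right for antrum minus corpus. The red curves are the steeper ones, with medians of −0.69 on the left and −0.065 on the right, against −0.13 and 0.21 for all genes.

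Genes of both subunits were lower. In the small subunit 16 of 33 genes fell, with a median of −0.69, and in the large subunit 20 of 49, with a median of −0.68. The 4 X-linked genes, Rpl10, Rpl36a, Rpl39 and Rps4x, had a median of −0.78, and 3 of them fell. These counts stand beside the 26.7% of all genes tested that were called lower. No test of a difference between these groups was made.

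Among the large subunit genes, Rpl8, whose protein lies near the peptidyl transferase centre, read 884 and 926 CPM in forestomach, 484 and 332 CPM in corpus, and 527 and 348 CPM in antrum. The groups did not overlap, and within corpus and antrum the first library was the higher. Rpl8 fell by 1.12 on the log2 scale (SE 0.300, adjusted p = 0.0127 by limma). Rpl37a, a zinc-binding protein of the large subunit, read 237 and 256 CPM in forestomach, 139 and 105 CPM in corpus, and 127 and 86.6 CPM in antrum. It fell by 1.12 (SE 0.265, adjusted p = 0.00701 by limma), again with no overlap. Rpl3, which reaches into the peptidyl transferase centre, read 438 and 328 CPM in forestomach, 269 and 232 CPM in corpus, and 302 and 244 CPM in antrum. Its groups were also apart, but its log2 fold change of −0.54 (SE 0.263) did not pass, with an adjusted p of 0.120 by limma. The other large subunit genes that fell were Rpl7a, Rpl11, Rpl13, Rpl15, Rpl22, Rpl23a, Rpl24, Rpl26, Rpl27, Rpl29, Rpl34, Rpl35a, Rpl36, Rpl36a, Rpl39, the stalk gene Rplp2 and the paralogs Rpl7l1 and Rpl36al. Their log2 fold changes lay between −1.12 for Rpl7l1 and −0.62 for Rpl29. Without corpus 2 and without antrum 2 the adjusted p of Rpl8 was 0.0531 and 0.0516, and that of Rpl37a 0.0362 and 0.0365 by limma.

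The 5S particle joins Rpl5 and Rpl11 to the 5S ribosomal RNA, and outside the ribosome it binds the p53 inhibitor Mdm2. Rpl11 read 170 and 223 CPM in forestomach, 85.9 and 98.4 CPM in corpus, and 99.3 and 92.2 CPM in antrum. The lowest forestomach library stood above every glandular one, and the glandular libraries were close together (93.9 ± 6.21 CPM, SD, n = 4). Rpl11 fell by 1.05 (SE 0.240, adjusted p = 0.00604 by limma). Rpl5 read 198 and 167 CPM in forestomach, 127 and 129 CPM in corpus, and 133 and 119 CPM in antrum. Its log2 fold change was −0.52 (SE 0.233) and did not pass, with an adjusted p of 0.0947 by limma. The difference between Rpl11 and Rpl5 was not tested.

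The stalk, built from Rplp0, Rplp1 and Rplp2, recruits elongation factors to the large subunit. Rplp1 read 674 and 778 CPM in forestomach, 515 and 266 CPM in corpus, and 504 and 241 CPM in antrum. Its glandular libraries split by a wide margin within each region, and its log2 fold change of −1.01 (SE 0.383) missed the threshold with an adjusted p of 0.0546 by limma. Rplp2 also had the lower second library in both glandular regions, with 272 and 286 CPM in forestomach, 192 and 112 CPM in corpus, and 194 and 113 CPM in antrum. It fell by 0.92 (SE 0.318, adjusted p = 0.0396 by limma, and 0.141 and 0.138 without corpus 2 and without antrum 2). Rplp0 read 594 and 716 CPM in forestomach, 544 and 374 CPM in corpus, and 529 and 328 CPM in antrum, and its −0.59 (SE 0.311) did not pass, with an adjusted p of 0.147 by limma. All 3 stalk genes were lower in every glandular library than in both forestomach libraries. This held for 77 of the 82 genes and for 34.3% of all genes tested, so it does not mark the stalk.

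Among the small subunit genes, Rps2, whose protein lies at the entry of the messenger RNA channel, read 1004 and 943 CPM in forestomach, 507 and 359 CPM in corpus, and 584 and 402 CPM in antrum. It fell by 1.10 (SE 0.294, adjusted p = 0.0131 by limma, and 0.0551 and 0.0529 without corpus 2 and without antrum 2), and its groups did not overlap. Rpsa, also known as the laminin receptor precursor, read 883 and 1055 CPM in forestomach, 569 and 435 CPM in corpus, and 648 and 408 CPM in antrum. It fell by 0.93 (SE 0.303, adjusted p = 0.0307 by limma, and 0.103 and 0.107 without these libraries). Rps6, the ribosomal protein that S6 kinases phosphorylate downstream of mTOR, read 204 and 189.8 CPM in forestomach, 134 and 115 CPM in corpus, and 138 and 105 CPM in antrum. It fell by 0.68 (SE 0.243, adjusted p = 0.0433 by limma, and 0.156 and 0.162 without them), with the 2 forestomach libraries above all others. Rps27a, made as a fusion with ubiquitin, read 155 and 152 CPM in forestomach, 105 and 130.4 CPM in corpus, and 104 and 125 CPM in antrum. Here the second library was the higher in corpus and antrum, and the log2 fold change of −0.40 (SE 0.238) did not pass, with an adjusted p of 0.192 by limma.

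The other small subunit genes that fell included Rps3a, Rps4x, Rps13, Rps15a, Rps19, Rps23, Rps25, Rps28, Rps29, Rps27l and the pseudogene row Rps4y2. Without Rps4y2, their log2 fold changes lay between −1.08 for Rps19, which is mutated in human Diamond-Blackfan anaemia, and −0.68 for Rps15a. Rps4y2 was 45.8 and 31.7 CPM in forestomach, 5.64 and 4.99 CPM in corpus, and 5.63 and 5.31 CPM in antrum. It fell by 2.61 (SE 0.236, adjusted p = 2.1e-05 by limma), the lowest estimate of the 82, and the 4 glandular libraries lay within 1 CPM of each other.

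Among the genes nearest to 0 were Rps7, Rpl7, Rpl31 and the paralog Rpl22l1. Rps7, whose protein also binds Mdm2, read 169 and 276 CPM in forestomach, 173 and 190.3 CPM in corpus, and 173 and 153 CPM in antrum, and its forestomach libraries lay on both sides of the corpus values (log2 fold change −0.33, SE 0.274). Rpl7 read 809 and 681 CPM in forestomach, 651 and 524 CPM in corpus, and 672 and 614 CPM in antrum (−0.28, SE 0.269). Rpl31, which lies at the exit of the peptide tunnel, read 70.7 and 78.2 CPM in forestomach, 60.7 and 65.9 CPM in corpus, and 61.9 and 60.0 CPM in antrum (−0.26, SE 0.219). Both Rpl7 and Rpl31 kept their groups apart by a small margin. The adjusted p values of Rps7, Rpl7 and Rpl31 by limma were 0.353, 0.427 and 0.363.

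**Figure D3:**
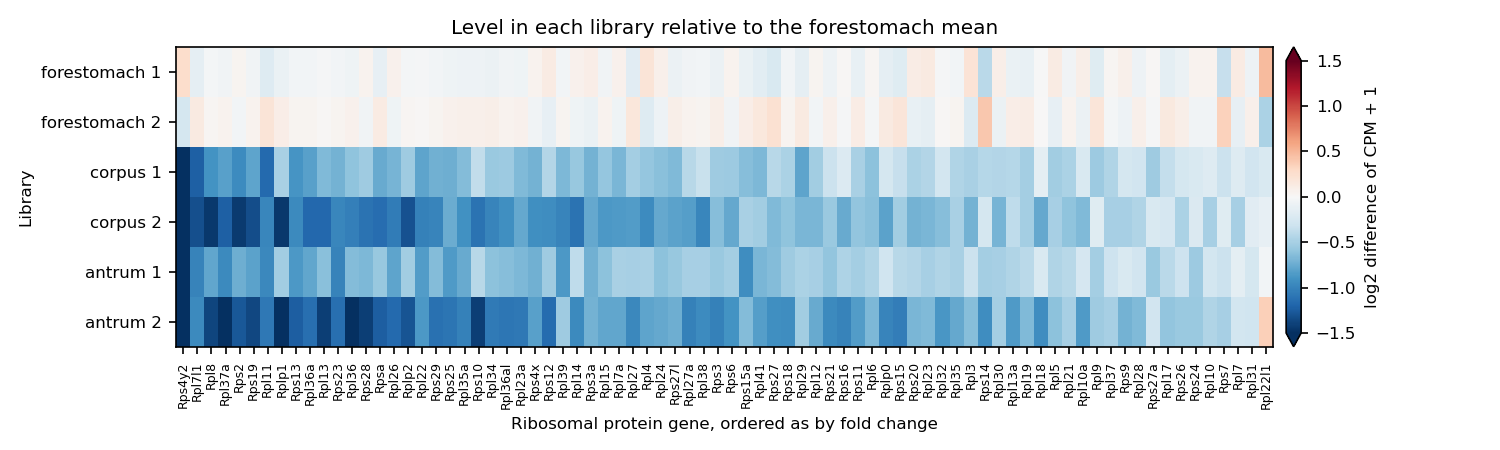
The level of the ribosomal protein genes named on the axis (columns, ordered as by fold change) in each library (rows) as log2(CPM + 1) minus the forestomach mean; blue is lower and red is higher, and colours end at −1.5 and 1.5, beyond which Rps4y2 lies in the glandular libraries. The rows of corpus 2 and antrum 2 are the darkest, with median differences over the 82 genes of −0.77 and −0.90, against −0.53 and −0.52 in corpus 1 and antrum 1.

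The paralogs of core ribosomal proteins gave a mixed picture. Levels between genes are compared per kilobase of transcript (GENCODE M21). For each gene the longest of its best-ranked annotated transcripts was taken, which may be longer than the messenger mainly present. Rpl22l1, the paralog of Rpl22, read 63.6 and 32.7 CPM in forestomach, 38.7 and 41.7 CPM in corpus, and 44.3 and 58.9 CPM in antrum. Its forestomach libraries enclosed all glandular values, and its log2 fold change was −0.01 (SE 0.298, adjusted p = 0.981 by limma). This direction is not fixed: it was 0.16 with libraries scaled to a common median ratio, 0.20 with the sum of listed genes, 0.17 with that sum less the ribosomal protein genes, and 0.46 without forestomach 1. Rpl22 itself, an RNA-binding protein of the large subunit, read 251 and 256 CPM in forestomach, 146 and 125 CPM in corpus, and 142 and 139.5 CPM in antrum, and fell by 0.88 (SE 0.232, adjusted p = 0.0123 by limma, and 0.0645 and 0.0517 without corpus 2 and without antrum 2).

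Per kilobase, Rpl22l1 stood at 0.941 and 0.474 of Rpl22 in forestomach, 0.988 and 1.24 in corpus, and 1.16 and 1.57 in antrum. The level of this ratio rests on the lengths taken, 552 bases for Rpl22l1 and 2051 bases for Rpl22. Its log2 differences between libraries do not. The ratio was above that of both forestomach libraries in all 4 glandular libraries, by 0.87 on the log2 scale. An exact permutation test over libraries, two-sided, gave p = 0.133, the smallest it can give with 2 against 4 libraries. The ratios of 4 paralogs and of the pseudogene row Rps4y2 were tested in this way. Rpl7l1 to Rpl7 (−0.86), Rpl36al to Rpl36a (0.18) and Rps4y2 to Rps4x (−2.03) also reached this smallest p. None could thus pass 0.05 even before adjustment.

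Rpl7l1, a paralog of Rpl7 whose yeast counterpart acts in assembly of the large subunit, read 94.6 and 115 CPM in forestomach, 44.0 and 41.1 CPM in corpus, and 51.7 and 53.3 CPM in antrum. It fell by 1.12 (SE 0.223, adjusted p = 0.00278 by limma), while Rpl7, given above, did not pass. Rps27l, a p53-induced paralog of Rps27, read 122 and 138 CPM in forestomach, 81.4 and 73.8 CPM in corpus, and 86.8 and 77.2 CPM in antrum. It fell by 0.69 (SE 0.226, adjusted p = 0.0310 by limma, and 0.125 and 0.117 without corpus 2 and without antrum 2). Rps27 had −0.66 (SE 0.259, adjusted p = 0.0614 by limma), from 231 and 317 CPM in forestomach, 202 and 170.03 CPM in corpus, and 172 and 143 CPM in antrum. The ratio of Rps27l to Rps27 differed by −0.036 on the log2 scale, with an exact permutation p of 0.8.

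Rpl36a on the X chromosome and its autosomal copy Rpl36al both fell. Rpl36a read 101 and 107 CPM in forestomach, 58.9 and 45.4 CPM in corpus, and 60.2 and 47.2 CPM in antrum, and fell by 0.98 (SE 0.239, adjusted p = 0.00848 by limma). Rpl36al read 72.7 and 78.2 CPM in forestomach, 51.5 and 39.3 CPM in corpus, and 48.3 and 35.1 CPM in antrum, and fell by 0.80 (SE 0.246, adjusted p = 0.0247 by limma, and 0.112 and 0.105 without corpus 2 and without antrum 2). Rps4y2 stood per kilobase at 0.058 and 0.043 of Rps4x in forestomach and between 0.0121 and 0.0125 of it in the glandular libraries. Rps4x itself, the X-linked Rps4 gene, fell by 0.79 (SE 0.257, adjusted p = 0.0299 by limma).

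Ribosomal protein genes have many processed copies in the genome, and the counting of reads with several matches is not given in the sources used here. The split of reads between these genes, their paralogs and their copies is uncertain. The table lists 34 rows of copies marked -ps above 0, whose summed level was 110 to 221 CPM a library, or 0.661% to 0.796% of that of the ribosomal protein genes. Any copies under other symbols were not summed, so this share does not bound the reads that copies take.

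**Figure D4:**
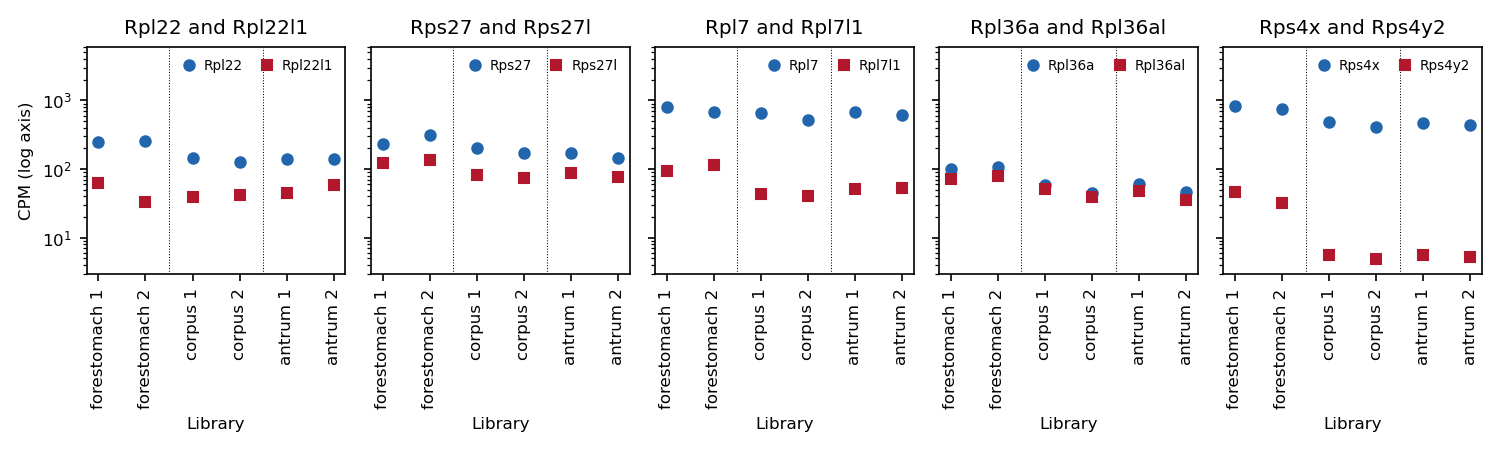
The level (CPM, log axis) of 4 paralogs and the pseudogene row Rps4y2 (red squares) and their core genes (blue circles) in each of the 6 libraries, with dotted lines between the regions. Rps4y2 drops from 45.8 and 31.7 CPM in forestomach to 4.99 to 5.64 CPM elsewhere, whereas the glandular values of Rpl22l1, from 38.7 to 58.9 CPM, lie within the forestomach range.

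The levels of the messengers were spread. In forestomach the median gene stood at 261 CPM per kilobase, with a range from 31.1 for Rpl29 to 1456 for Rplp1, and 40 of 82 genes lay within 2-fold of the median. In the glandular libraries the median was 171 CPM per kilobase, the range from 5.72 for Rps4y2 to 768 for Rps14, and 42 genes lay within 2-fold of it. By the lengths taken, Rplp1, Rps14 and Rps18 were among the 5 highest in both. Rpl29, Rpl7l1, Rps4y2, Rps15a and Rpl36al were the 5 lowest in both. This order depends on the choice of transcript. Rps15a was given 5179 bases, while its 200 and 229 CPM in forestomach stood near the medians of the 82 genes there, 248 and 274 CPM. The transcripts taken for these genes are short, with a median of 886 bases against 2992 for the 11687 tested genes matched to one. Their median GC content of 51.6% was close to the 50.2% of those genes.

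The genes with the pyrimidine run near the start and those without were set side by side. Of 48 genes with it, 19 (39.6%) fell, with a median log2 fold change of −0.68. Of 13 without it, 9 (69.2%) fell, with a median of −0.73. Of all genes tested, 26.7% were called lower. Rps6, with the run shown above, and Rpl7l1, with none, both fell, and Rpl31, with a run before its start, did not pass. No test of this difference was made.

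Antrum and corpus were grown by 1 protocol and compared in the same fit. No ribosomal protein gene was called by limma in either direction, and none had an unadjusted p under 0.05; of all genes tested 0.202% were called lower and 0.555% higher in antrum, 0.757% in all. In all, 55 of the 82 estimates were below 0 and 27 above, while of all genes tested 2276 were below 0 and 9572 above. The 82 genes had a median of −0.065 on the log2 scale and a range from −0.37 to 0.34. The median of all genes was 0.21. The gap between both medians, −0.28 as deposited, was −0.31 with libraries scaled to a common median ratio, where the ribosomal protein median was −0.30 and that of all genes 0.0042. Without antrum 2 the ribosomal protein median was 0.0999 and the gap −0.18, and without antrum 1 they were −0.26 and −0.40. Of the 82 estimates, 16 were below 0 without antrum 2 and 70 without antrum 1. In 10 genes both antrum libraries were below both corpus libraries, and in 3 both were above, shares to be read against 5.32% and 45.4% of all genes.

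At the lower end stood Rps14, a small subunit gene lost in the human 5q deletion syndrome, with −0.37 (SE 0.368). It read 640 and 716 CPM in corpus and 606 and 450.4 CPM in antrum, after 651 and 1143 CPM in forestomach, the widest pair of the 82 genes in forestomach by ratio save Rpl22l1. Rps21 (−0.33, SE 0.292), Rps24 (−0.33, SE 0.271) and Rps15 (−0.30, SE 0.328) were also there. Rps24 was 251 and 252 CPM in corpus and 201 and 199 CPM in antrum, pairs that agree closely and stand apart. At the upper end were Rpl22l1 (0.34, SE 0.344), Rpl7l1 (0.30, SE 0.257), Rpl29 (0.24, SE 0.251), Rps2 (0.18, SE 0.339) and Rpl14 (0.17, SE 0.329). For Rpl22l1, Rpl7l1 and Rpl29 both antrum libraries were above both corpus libraries. The adjusted p of the genes named here was at least 0.828 by limma, and the estimates of Rps2 and Rpl14 turned below 0 with libraries scaled to a common median ratio (−0.060 and −0.069).

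The 2 libraries of a region also differed. Antrum 2 was below antrum 1 in 76 of the 82 genes, with a median difference of −0.32 on the log2 scale, and corpus 2 was below corpus 1 in 68, with a median of −0.24. In forestomach the second library was lower in 30 and higher in 52, with a median of 0.078. Over all genes tested the medians were −0.13 in antrum, −0.15 in corpus and −0.28 in forestomach, so the members stood below all genes in the glandular regions and above them in forestomach. Rplp1 had the widest drop in both glandular regions, with −0.95 in corpus and −1.06 in antrum. Rps10, with 199 and 119 CPM in corpus and 191.7 and 96.2 CPM in antrum, was among the 3 widest in each.

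Across the 82 genes the differences of corpus and antrum had a Pearson r of 0.745, and across all genes tested 0.614, while those of forestomach and corpus gave 0.149 and −0.06. These points share their libraries and are not independent. The differences also ran with the GC content of the transcript: Spearman's rho was −0.564 in antrum over the 82 genes and −0.642 over all genes matched, −0.334 and −0.441 in corpus, and 0.169 and 0.255 in forestomach. The part of GC content in the results above was not tested. The glandular against forestomach fold change had a rho with GC content of −0.284 over the 82 genes and −0.019 over all genes. With transcript length, in which these genes are short, its rho was 0.228 and 0.212, and the forestomach difference between libraries had a rho with length of −0.152 over the 82 genes and −0.461 over all genes. The part of length was not tested.

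**Figure D5:**
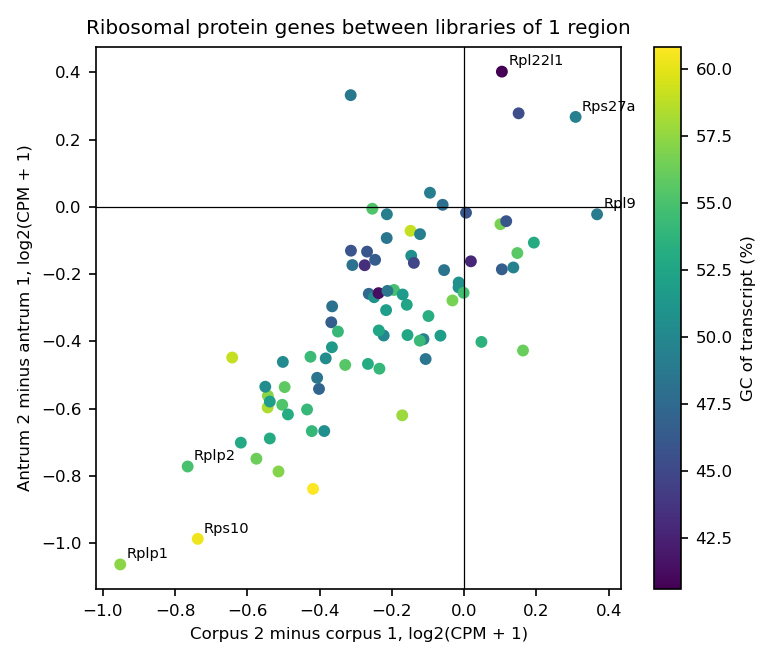
For each ribosomal protein gene, the log2(CPM + 1) of the second library minus the first, in corpus (horizontal) and antrum (vertical), coloured by the GC content of its transcript (%). Most points lie below 0 on both axes, down to −0.95 and −1.06 for Rplp1, and the GC-poor Rpl22l1 is above 0 on both.

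Other genes of ribosome production and translation were read from lists set by function, whose counts stand beside the 26.7% of all genes tested called lower and 21.1% called higher. Of the ribosomal proteins outside the naming rule, Fau, made as a fusion with a ubiquitin-like protein, had −0.63, and Gnb2l1, which encodes the scaffold Rack1, −0.74, with adjusted p values of 0.128 and 0.0874 by limma. Of 48 ribosome biogenesis genes, 34 fell in glandular cultures, with a median of −0.89, and 14 did not pass. Among these 14, Ncl, named after its values were seen, read 127 and 62.9 CPM in forestomach. It read 107 and 106 CPM in corpus, and 129 and 157 CPM in antrum. Rrp9, of the U3 particle that processes ribosomal RNA, read 39.6 and 51.4 CPM in forestomach, 11.8 and 9.53 CPM in corpus, and 15.7 and 10.5 CPM in antrum, and fell by 1.86 (adjusted p = 3.0e-04 by limma). Nop10, of the box H/ACA particle, fell by 1.82, and Wdr12, which acts in large subunit assembly, by 1.55. Of 10 genes of RNA polymerase I, which transcribes ribosomal RNA, 5 fell, with a median of −0.60, among them the initiation factor Rrn3 with −1.28 and the subunits Polr1e with −1.22 and Polr1d with −0.83. The 5 also included Polr1b with −0.71 and Taf1b with −0.72, named after their values were seen.

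Elongation factors and other genes known for the pyrimidine motif had a median of −0.60, with 7 of 16 lower, and those with the lowest estimates were Eif3k (−0.99), Eef1g (−0.98) and Eef1d (−0.98). Of 28 initiation factor genes, 14 fell and 1, Eif5, rose (0.80, adjusted p = 0.0471 by limma), with a median of −0.60. Eif2b3 had −1.83, Eif6, which keeps the large subunit from joining early, −1.72, and Eif2s3x −1.03. The list of mTOR and Myc pathway genes had a median of 0.55, with 1 of 19 lower and 3 higher (5.26% and 15.8%, both below the shares of all genes). The 1 was Rheb (−0.75), the activator of mTOR, and the 3 were Mxd1 (2.27) and Mnt (1.19), which encode repressors that pair with Max, and Mycn (1.18), a Myc family member at 0.32 to 2.81 CPM. In 10 p53 target genes the median was −0.92, and 5 fell, Phlda3 (−3.48), Ccng1 (−1.77), Eda2r (−1.61), Aen (−1.16) and Mdm2 (−0.99), the partner of free Rpl5 and Rpl11. Eif5, Rheb, Aen and Mdm2 were named after their values were seen.

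Markers of other cell types moved with the same contrast. The 6 fibroblast genes Col1a1, Col1a2, Col3a1, Vim, Pdgfra and Dcn summed to 0.12 to 0.29 CPM in forestomach and 36.4 to 78.4 CPM in the glandular libraries. Of the immune genes in the table, Ptprc was below 1 CPM in every library, and the sum of Ptprc, Cd68 and Cd14 was 42.9 to 46.5 CPM in forestomach and 7.72 to 16.1 CPM elsewhere. Cd68 carried that sum (−3.03), while Cd14 was higher in glandular cultures (1.35, adjusted p = 0.00282 by limma). The 4 endothelial genes summed to 6.20 to 8.15 CPM and 1.63 to 2.48 CPM, with Cdh5 and Kdr below 1 CPM in all libraries. Egfl7 carried that sum (−2.11), while Pecam1 was higher in glandular cultures (0.92, adjusted p = 0.00438 by limma). The part of such cells in the ribosomal protein levels was not tested.

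The scaling of the libraries moved these counts. As deposited, 44.1% of the genes called in the glandular against forestomach comparison were higher, and 54.7% were with libraries scaled to the sum of listed genes. The ribosomal protein median then was −0.48, with that of all genes at 0.054, and 30 of the 82 genes were called lower. In that scaling 24.0% of all genes tested were called lower and 29.0% higher. The gap between both medians was −0.56 as deposited and −0.53 in that scaling, and it was −0.34 without forestomach 2 and −0.77 without forestomach 1.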

How the data were processed

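Total RNA of 6 libraries, 2 each of cultured forestomach, corpus and antrum epithelium, was sequenced after ribosomal RNA depletion, per the labels' protocols. Their deposited file is a single table of CPM, rounded by the authors to 2 decimals. The submitters' processing notes name STAR, HTSeq, DESeq2, edgeR and build mm9; for their versions and roles, the use of strand and the counting of multiple matches, the answer is not given in the sources used here. Columns name a region and a number, which the labels do not tie to sample IDs. Of 15450 rows, 19 whose symbols had become dates were left out (at most 0.206% of listed CPM). Genes at 1 CPM or more in 2 of 6 libraries (11891) were fitted on log2(CPM + 1) with limma 3.58.1 in R 4.3.3, 3 region means, an intensity trend and Benjamini-Hochberg adjustment over all genes, after a test on simulated data. A fold change on this scale understates low genes. Errors are SD or SE; depth was read from the even steps of low values. Lengths and GC content are those of the longest of the best-ranked GENCODE M21 transcripts of a gene. Chromosomes and promoters come from RefSeq GRCm38.p6. Named are the 5 highest and lowest estimates per comparison, paralogs with their core genes, stalk, 5S and other fixed genes, and the 3 with the largest change per list. A few genes are not reported here by name. The members, lists and tests were chosen with earlier results of these data known. Alternatives varied the pseudocount, filter, scaling, trend, replicate block and libraries.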

Additional observations from a re-analysis of the deposited data

How the results depend on the processing

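Of the glandular against forestomach results, 36 genes called lower became 61 with the replicate block (29.5% of all genes lower), and 7 to 31 when 1 library was left out (18.5% to 31.8% of all genes lower). The numbers 1 and 2 of the columns are not known to pair libraries: deviations from the region means correlated at 0.614 between corpus and antrum over all genes, but at −0.06 and −0.106 with forestomach. Antrum against corpus gave 0 calls among the members under the block too, beside 0.0673% of all genes called lower and 0.21% higher. The block gives every region the same shift by number, so it does not settle whether corpus and antrum libraries are independent. The median of the members moved from −0.69 to −0.48 with the sum of listed genes, and that of antrum against corpus from −0.065 to −0.30 with a common median ratio and to between −0.26 and 0.0999 without 1 library. Signs turned for genes near 0. Glandular against forestomach, Rpl22l1 gave 0.16 with a common median ratio, 0.20 with the sum of listed genes, 0.17 with that sum less the members, and −0.48 to 0.46 without 1 library; Rps7 ranged from −0.68 to 0.023 without 1 library. Antrum against corpus, Rps2 gave −0.060 and −0.0042, and Rpl14 −0.069 and −0.013, with the median ratio and with the listed sum less the members; Rpl14 gave −0.001 with the sum of listed genes. Without 1 library, Rps2 ranged from −0.086 to 0.45, Rpl14 from −0.12 to 0.46 and Rps15 from −0.61 to 0.010. The cause was not tested. Pseudocounts of 0.1 and 5, the filters and the fit without a trend kept every median's direction. Glandular against forestomach, they gave 31 to 50 genes called lower, beside 23.7% to 27.6% of all genes. Count tests (edgeR and DESeq2) were not run, since the rounded CPM were not taken as whole reads. With 2 libraries a region, small differences cannot be shown at this depth of replication.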

Other observations

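The genes of the mitochondrial ribosome, which translates the messages of the mitochondrial genome and shares no protein gene with the cytosolic one, were also lower in glandular than in forestomach cultures. Of 76 tested, 39 fell, where 26.7% of all genes tested were called lower, and their median log2 fold change was −0.67, beside −0.69 for the cytosolic ribosomal protein genes. Mrpl33 read 66.1 and 74.9 CPM in forestomach, 23.8 and 30.3 CPM in corpus, and 26.7 and 30.8 CPM in antrum, and fell by 1.31 (SE 0.229, adjusted p = 0.00134 by limma). Mrps27 had −1.19 and Mrpl22 −1.17.

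Of 15 proliferation genes, 13 fell in the glandular cultures, beside 26.7% of all genes, with a median of −1.44. Rrm2, a subunit of ribonucleotide reductase, read 170.2 and 187 CPM in forestomach, 20.1 and 21.3 CPM in corpus, and 30.7 and 40.5 CPM in antrum, and fell by 2.68 (SE 0.230, adjusted p = 1.5e-05 by limma). Ccnb1 and Cdk1, the cyclin and kinase of mitotic entry, had −2.01 and −1.86. Not every gene of the list was apart. Top2a read 390 and 185 CPM in forestomach, 136 and 153 CPM in corpus, and 150 and 270 CPM in antrum. Mki67 read 239 and 74.1 CPM in forestomach, 131 and 147 CPM in corpus, and 165 and 286 CPM in antrum. Its mean was the higher in glandular cultures (182 against 156.5 CPM). Top2a and Mki67 were named after their values were seen. Of 7 genes that host small nucleolar RNAs, 1, Snhg4, fell, by 0.58 (adjusted p = 0.0489 by limma), and the median was −0.16.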
